A study of Mus musculus with 6 samples.

Results

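The genes described here are 10 members of the liver X receptor (LXR) and cholesterol efflux pathway, chosen by symbol from the 55335 mouse genes of the table. They are the receptor genes Nr1h2 and Nr1h3, the receptor targets Abca1, Abcg1, Mylip, Lpcat3, Apoe and Lpl, and the lysosomal cholesterol transport genes Npc1 and Npc2. Each symbol matched 1 identifier. RNA came from RAW 264.7 cells, an established mouse macrophage line labelled wild type, in 2 groups of 3 libraries. Both groups received 200 ng/ml lipopolysaccharide (LPS), the bacterial product that activates macrophages, for 8 h. The second group also received ultrasound for 10 min within that time, with a frequency of 1 MHz, an intensity of 50 mW/cm², pulses of 200 µs repeated at 1 kHz and a duty cycle of 20%. No value below describes the response to LPS, since unstimulated cells were not analysed here. Nothing in the labels says that the libraries are separate cultures, so p-values measure only the spread between libraries, which may be technical.

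LXRs are nuclear receptors that sense oxidised cholesterol and cholesterol precursors. They bind DNA as a pair with a retinoid X receptor, at 2 short motifs in direct repeat, and hold target genes down with co-repressors until a sterol ligand arrives. In macrophages the targets move cholesterol out of the cell through the transporters encoded by Abca1 and Abcg1. They also lower cholesterol uptake through Mylip, remodel membrane phospholipids through Lpcat3 and supply Apoe, an apolipoprotein that accepts exported cholesterol. Npc1 and Npc2 act before this, by moving cholesterol out of the lysosome.

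The Abca1 promoter is shown because it carries the receptor's recognition sequence, and because this gene is the best known readout of the pathway. RefSeq places it at chr4:53159846-53160145 of GRCm38.p6 on the minus strand, 250 bases before the start site to 50 after it. Printed 5′ to 3′ on the strand of the gene, its capitals mark an E-box (CACGTG), the direct repeat and a TATA box (TATAAA), in that order:
Abca1 promoter: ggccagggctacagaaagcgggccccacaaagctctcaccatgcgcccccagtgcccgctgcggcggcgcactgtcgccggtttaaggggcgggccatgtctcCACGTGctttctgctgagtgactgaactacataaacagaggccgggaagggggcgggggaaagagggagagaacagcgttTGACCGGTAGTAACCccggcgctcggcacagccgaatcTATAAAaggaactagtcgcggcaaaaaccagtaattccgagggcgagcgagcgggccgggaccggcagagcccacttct
The repeat was searched as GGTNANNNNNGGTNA on both strands, where N is any base. These letters are the last 5 bases of each motif in a direct repeat with a spacer of 4 bases, and they were chosen after the Abca1 promoter had been read. In Abca1 the match lay on the opposite strand, 67 to 53 bases before the start site (chr4:53159948-53159962). Promoter sequences were at hand for 7 of the 10 members, and Abca1 was the only one of these 7 with a match. Abcg1, Lpl and Npc1 had no sequence and were not searched. Among 61 further pathway genes with a sequence, Fasn and Srebf1 matched, both genes of fatty acid synthesis and its control. Srebf1 has 3 promoter sequences, of which 1 matched. The Fasn match lay 225 to 211 bases before its start site (chr11:120824758-120824772) and the Srebf1 match 182 to 168 bases before (chr11:60210639-60210653), each on the strand opposite to the gene. Of all 32851 RefSeq promoters of this length, from 27025 symbols, 236 (0.718%) held a match. This share counts promoters, while the counts above are of genes, some of which have 2 or 3 promoters. The E-box letters occurred in 7.15% of promoters and the TATA box letters in 13.6%. The sites are set side by side with 8 bases on each side, the repeat in capitals:
Abca1 site: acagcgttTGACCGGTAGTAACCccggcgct
Fasn site: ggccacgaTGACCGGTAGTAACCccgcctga
Srebf1 site: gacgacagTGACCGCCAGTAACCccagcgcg
Read on the other strand, the repeat was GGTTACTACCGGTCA in both Abca1 and Fasn and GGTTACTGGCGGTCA in Srebf1. A match describes letters in this window and not a bound site.

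Levels are FPKM, a fragment density corrected for transcript length and library size, given per library or as mean ± SD (n = 3 libraries in each group). A log2 fold change is the ultrasound mean minus the LPS mean of log2(FPKM + 1), with its standard error (SE), a scale on which changes of low genes look smaller. The libraries summed to 278871 to 292200 FPKM, with 11128 to 11299 genes at 1 FPKM or more. Each of the 11 macrophage markers passed 1 FPKM, Fcer1g, Cd68 and Laptm5 being the highest. The summed level of the 11 ran from 2740 to 3020 FPKM with LPS and 2820 to 3110 with ultrasound. This sum rests mostly on the highest markers, and single markers moved in both directions. Adgre1 had 25.1 ± 7.98 FPKM with LPS and 15.5 ± 2.04 with ultrasound, and Itgam 21.7 ± 9.49 and 12.5 ± 0.732. Csf1r had 50.9 ± 19.9 and 71.7 ± 20.7. The groups overlapped for each of these genes. Of the 32 markers of other cell types, only Fabp4 reached 1 FPKM. LPS library 2 stood apart, at -28.8 on the first principal component against -2.03 to 17.7 for the other 5 libraries.

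None of the members passed the test for a difference between the groups. Of the 10 members, 9 had a mean of at least 1 FPKM and were tested, and 0 of these 9 passed at an adjusted p below 0.05 (limma with Benjamini-Hochberg adjustment over 11270 genes), where 0.0177% of all genes tested did. When the replicate number entered limma as a block, the fit called 13 genes in all (0.115%) in place of 2, and again 0 members. At an unadjusted limma p below 0.05, 1 member, Lpl, was lower and 0 were higher, beside 9.16% and 6.18% of all genes tested. Groups did not overlap for 1 member, Nr1h3, which was lower in the ultrasound group, beside 13.4% of all genes tested that were lower in that way and 9.8% that were higher. In same-numbered pairs of libraries, 2 tested members, Nr1h2 and Apoe, were higher with ultrasound in 3 of 3 and 4, Nr1h3, Lpcat3, Lpl and Npc2, were lower in 3 of 3, beside 24.3% and 30.9% of all genes tested. The median log2 fold change was -0.02 over the 9 tested members and -0.02 over all genes tested.

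**Figure D1:**
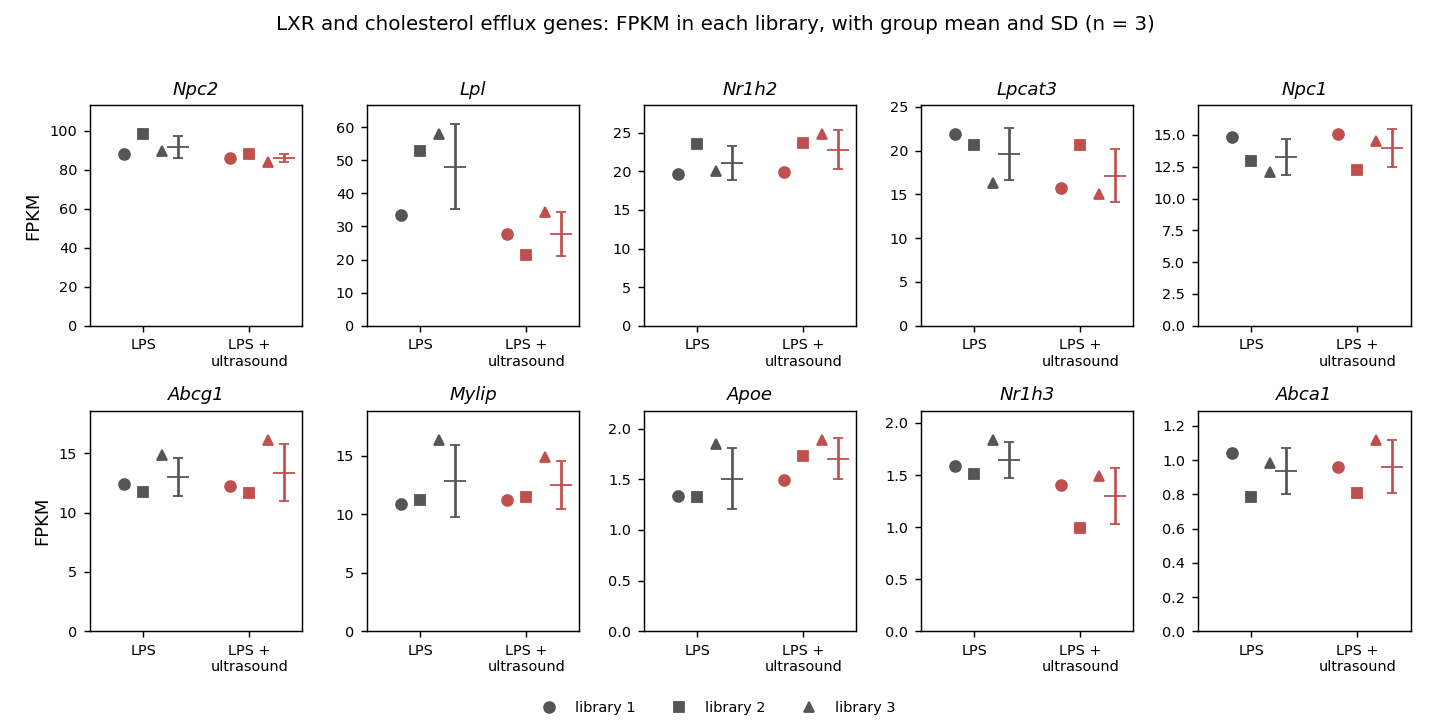
FPKM of the 10 members (y axis, from 0) in the 3 LPS and 3 LPS plus ultrasound libraries, ordered by mean level; symbols give the library number and bars the group mean ± SD (n = 3). Lpl has the widest gap between group means, 48.1 against 27.8 FPKM, and Nr1h3 is the only panel in which the groups do not overlap.

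The members spanned a wide range of levels. Npc2 was highest, with a mean of 89.0 FPKM over the 6 libraries, followed by Lpl at 37.9, Nr1h2 at 21.9, Lpcat3 at 18.4, Npc1 at 13.6, Abcg1 at 13.2 and Mylip at 12.7. Apoe at 1.60, Nr1h3 at 1.47 and Abca1 at 0.949 FPKM formed a low group. Npc2 stood above Lpl in 6 of 6 libraries and Mylip above Apoe in 6 of 6, with ranges that did not overlap. Every other pair of neighbours in this order had overlapping ranges. Npc2 lay at the 95.7th percentile of the mean levels of tested genes, and Nr1h3 at the 7.46th.

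Nr1h2 (ENSMUSG00000060601), which encodes the broadly expressed receptor LXR beta, was the main LXR transcript. It had 19.6, 23.6 and 20.0 FPKM in LPS libraries 1 to 3 and 19.9, 23.7 and 24.8 in ultrasound libraries 1 to 3. Ultrasound libraries 2 and 3 lay above the highest LPS library, library 2 by a narrow margin. Its log2 fold change was 0.11 ± 0.11 (SE), with a 95% interval from -0.15 to 0.37 (limma, Benjamini-Hochberg adjusted p = 0.654), and it ran from 0.05 without ultrasound library 3 to 0.20 without ultrasound library 1.

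Nr1h3 (ENSMUSG00000002108), which encodes LXR alpha, the receptor enriched in macrophages and liver, had 1.59, 1.51 and 1.84 FPKM with LPS and 1.40, 0.990 and 1.49 with ultrasound. The groups did not overlap, but the highest ultrasound value, 1.49, lay just under the lowest LPS value, 1.51. Its log2 fold change was -0.21 ± 0.12 (SE), with a 95% interval from -0.50 to 0.08 (limma, Benjamini-Hochberg adjusted p = 0.433). Without ultrasound library 2, the lowest, it was -0.11. Nr1h3 was the lower receptor in every library. The ratio of Nr1h2 to Nr1h3 in FPKM was 12.3, 15.6 and 10.9 in the LPS libraries and 14.2, 23.9 and 16.6 in the ultrasound libraries, so the ranges of the groups overlapped.

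The partners of the receptors were split more widely than the receptors, between an abundant and a near-absent form. The retinoid X receptor gene Rxrb had 20.6, 20.9 and 20.6 FPKM with LPS and 19.3, 15.9 and 18.5 with ultrasound. The groups did not overlap, and the log2 fold change was -0.20 ± 0.09 (SE) (limma, Benjamini-Hochberg adjusted p = 0.325), or -0.13 without ultrasound library 2. Rxra had 0.0546, 0.0460 and 0.0628 FPKM with LPS and 0.147, 0.0797 and 0.0689 with ultrasound, too low to be tested, and Rxrg was listed at 0 in all 6 libraries. Of the 13 partner and coregulator genes, 11 were tested and 0 passed in either direction (median log2 fold change -0.08). The coactivator genes Ncoa6 and Ncoa3 had the smallest p after Rxrb. Ncoa6 had 8.39 ± 1.82 and 10.3 ± 0.362 FPKM, and Ncoa3 12.5 ± 0.401 and 11.2 ± 0.428. The co-repressor complex genes Ncor1, Hdac3, Tbl1x, Tbl1xr1 and Gps2 were expressed, at group means from 5.06 to 28.6 FPKM.

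Abca1 (ENSMUSG00000015243) encodes the transporter that loads cholesterol and phospholipid onto lipid-poor apolipoprotein. It had 1.04, 0.782 and 0.985 FPKM with LPS and 0.959, 0.807 and 1.12 with ultrasound. The groups overlapped throughout, with the lowest value in library 2 of each. With a mean under 1 FPKM it fell below the filter. In the fit with no filter its log2 fold change was 0.02 ± 0.10 (SE) (limma, Benjamini-Hochberg adjusted p = 0.959). Its longest annotated transcript has 10262 bases, so these low FPKM would stand for about 214 to 311 fragments per library if all came from it, at the depth implied by the steps in the table.

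Abcg1 (ENSMUSG00000024030), whose product exports cholesterol to high density lipoprotein, was the more abundant exporter. It had 12.4, 11.8 and 14.8 FPKM with LPS and 12.3, 11.7 and 16.1 with ultrasound. Libraries of the same number lay close together, and library 3 was highest in both groups. This gave a log2 fold change of 0.03 ± 0.14 (SE), with a 95% interval from -0.30 to 0.36 (limma, Benjamini-Hochberg adjusted p = 0.932). Its sign turned without LPS library 2, at -0.03, without ultrasound library 3, at -0.10, and with sample weights, at -0.05. The ratio of Abcg1 to Abca1 in FPKM was 11.9, 15.0 and 15.0 with LPS and 12.8, 14.5 and 14.4 with ultrasound.

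The genes most like the exporters were taken by the root mean square difference between centred log2(FPKM + 1) profiles over the 6 libraries. For Abca1 they were Cmip, Ncoa2 and Prcc, at differences of 0.019, 0.019 and 0.022. For Abcg1 they were Pianp, Mtmr4 and Ivns1abp, at 0.046, 0.048 and 0.053. Because Abca1 varied little on this scale, its nearest genes are ones that varied little too.

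Mylip (ENSMUSG00000038175), also called Idol, encodes a ubiquitin ligase that marks lipoprotein receptors for degradation. It had 10.9, 11.3 and 16.4 FPKM with LPS and 11.2, 11.5 and 14.9 with ultrasound. As for Abcg1, library 3 was highest in both groups and the groups overlapped. This gave a log2 fold change of -0.02 ± 0.17 (SE), with a 95% interval from -0.43 to 0.38 (limma, Benjamini-Hochberg adjusted p = 0.963), and its sign turned when single libraries were left out, from -0.14 to 0.15.

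Of the 9 lipoprotein uptake and receptor genes, 5 were tested and 0 passed in either direction (median log2 fold change 0.03). Lrp8, a lipoprotein receptor gene, had 2.53 ± 0.206 and 3.54 ± 0.642 FPKM, and Msr1, the class A scavenger receptor gene, 6.55 ± 3.26 and 3.71 ± 0.649. The groups did not overlap for either gene, Lrp8 higher and Msr1 lower with ultrasound, beside 9.8% and 13.4% of all genes tested. The highest ultrasound value of Msr1, 4.45, lay just under its lowest LPS value, 4.51. LPS library 2 had 10.3 FPKM of Msr1, against 4.51 and 4.83 in LPS libraries 1 and 3, and without it the log2 fold change of Msr1 went from -0.61 to -0.28. That of Lrp8 went from 0.36 to 0.20 without both libraries numbered 2. Cd36, the class B scavenger receptor gene, was listed at 0 in 5 libraries and at 0.0378 FPKM in LPS library 2, and Vldlr at 0 in all 6.

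Lpcat3 (ENSMUSG00000004270) encodes an acyltransferase that puts polyunsaturated chains into membrane phospholipids. It had 21.9, 20.7 and 16.3 FPKM with LPS and 15.8, 20.6 and 15.0 with ultrasound. The groups overlapped, and the log2 fold change was -0.19 ± 0.15 (SE), with a 95% interval from -0.54 to 0.16 (limma, Benjamini-Hochberg adjusted p = 0.560), and it ran from -0.32 without ultrasound library 2 to -0.11 without ultrasound library 3. In GENCODE M21, 334 of its 3268 exonic bases lie in exons of Emg1 on the opposite strand, so without stranded counting some reads cannot be assigned to one of the 2 genes. Of 8 other lysophospholipid acyltransferase genes, 7 were tested and 0 passed (median log2 fold change 0.04). Lpcat4 had 11.7 ± 1.70 and 8.59 ± 0.707 FPKM, Mboat1 3.49 ± 0.368 and 4.69 ± 0.662, and Lpgat1 20.9 ± 0.884 and 23.5 ± 0.765. Groups did not overlap for these 3 of the 7 tested genes, which were named for the smallest p. Lpcat4 was lower and Mboat1 and Lpgat1 were higher in the ultrasound group, beside 13.4% and 9.8% of all genes tested.

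Lpl (ENSMUSG00000015568) encodes lipoprotein lipase, which releases fatty acids from triglyceride-rich lipoproteins and is secreted by macrophages. It had 33.5, 52.9 and 57.9 FPKM with LPS and 27.7, 21.2 and 34.5 with ultrasound. The 2 highest libraries were LPS libraries 2 and 3 and the 2 lowest were ultrasound libraries 1 and 2, while ultrasound library 3 lay above LPS library 1, so the groups overlapped. The mean was 48.1 ± 12.9 FPKM with LPS and 27.8 ± 6.64 with ultrasound, 0.579 of the LPS mean. The log2 fold change was -0.76 ± 0.24 (SE), with a 95% interval from -1.32 to -0.20, and it did not pass over all genes tested (limma, unadjusted p = 0.0148, Benjamini-Hochberg adjusted p = 0.241, or 0.123 when the replicate number was a block). The ultrasound library was lower in 3 of 3 same-numbered pairs, by log2 differences of -0.26, -1.28 and -0.73. Leaving out both libraries numbered 2 moved the log2 fold change to -0.50, and leaving out LPS library 1 moved it to -0.99. In bulk RNA, fewer cells expressing a gene and less RNA per cell cannot be told apart.

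Adipocytes also express Lpl, and of the 5 adipocyte markers Lep was at 0 and Adipoq, Plin1 and Cidec were near 0 in all libraries. The summed level of the 5, nearly all from Fabp4, was 1.52 to 2.18 FPKM with LPS and 1.29 to 1.95 with ultrasound. Whether these levels bear on the difference in Lpl was not tested. Of 7 genes for lipase maturation and inhibition, 3 were tested and 0 passed (median log2 fold change 0.02). The lipase inhibitor gene Angptl4 had 1.13 ± 0.257 and 1.38 ± 0.160 FPKM, the protease gene Furin 66.2 ± 6.15 and 63.8 ± 4.19, and Sel1l, which helps the lipase leave the endoplasmic reticulum, 37.0 ± 8.90 and 37.6 ± 9.68. The lipase maturation factor gene Lmf1, under the filter, had 0.789, 1.18 and 0.921 FPKM with LPS and 0.590, 0.724 and 0.588 with ultrasound. Gpihbp1, the endothelial anchor of the lipase, was listed at 0 in the LPS libraries and at 0.0142, 0.0107 and 0.0115 FPKM in the ultrasound libraries.

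**Figure D2:**
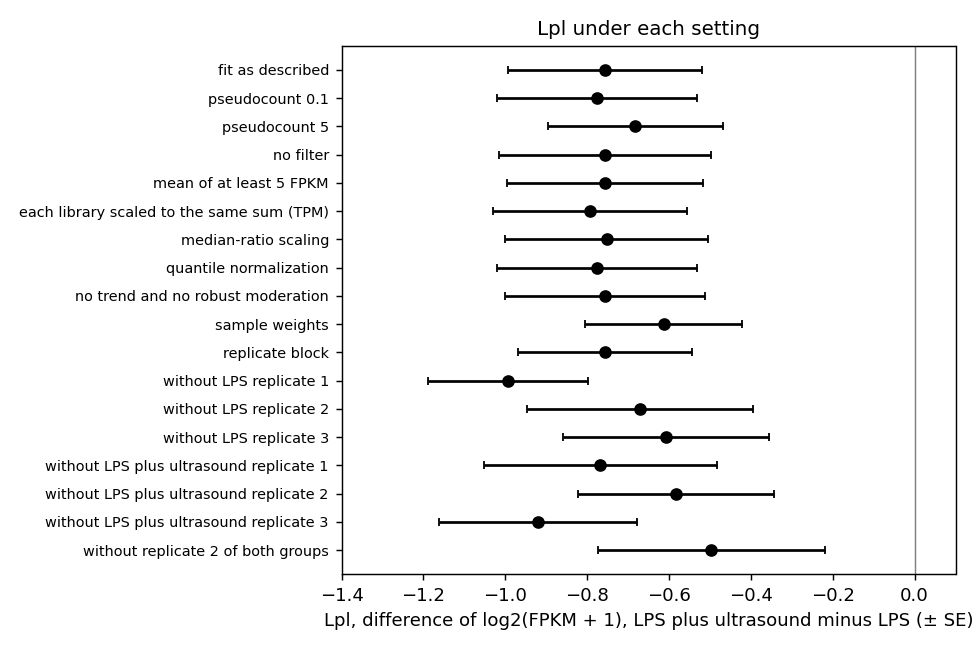
Log2 fold change of Lpl (x axis, ultrasound against LPS) under each setting, with bars of ± 1 SE. All 18 estimates are below 0, from -0.99 without LPS library 1 to -0.50 without both libraries numbered 2.

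Apoe (ENSMUSG00000002985) was low in these cells. It had 1.34, 1.32 and 1.85 FPKM with LPS and 1.49, 1.73 and 1.89 with ultrasound. Ultrasound library 3 was highest and LPS libraries 1 and 2 were lowest, and the groups overlapped. The log2 fold change was 0.11 ± 0.12 (SE), with a 95% interval from -0.17 to 0.40 (limma, Benjamini-Hochberg adjusted p = 0.665). With 1408 bases in the longest annotated transcript, these values would stand for about 53 to 72 fragments per library. The neighbouring apolipoprotein genes Apoc1 and Apoc4 were listed at 0 in all 6 libraries.

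Npc1 (ENSMUSG00000024413) encodes the membrane protein that passes cholesterol out of the lysosome. It had 14.8, 12.9 and 12.1 FPKM with LPS and 15.1, 12.2 and 14.5 with ultrasound. Library 1 was highest in both groups and the groups overlapped. Its log2 fold change was 0.06 ± 0.11 (SE), with a 95% interval from -0.19 to 0.32 (limma, Benjamini-Hochberg adjusted p = 0.794). Of its 11317 exonic bases, 511 are shared with Rmc1 on the opposite strand.

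Npc2 (ENSMUSG00000021242) encodes the soluble lysosomal protein that hands cholesterol to NPC1. It had 88.0, 98.3 and 89.4 FPKM with LPS and 86.0, 88.4 and 83.9 with ultrasound. Only ultrasound library 2 lay within the LPS range. The log2 fold change was -0.09 ± 0.07 (SE), with a 95% interval from -0.26 to 0.07, the narrowest among the tested members (limma, Benjamini-Hochberg adjusted p = 0.544). The ratio of Npc2 to Npc1 in FPKM was 5.93, 7.60 and 7.40 with LPS and 5.71, 7.22 and 5.77 with ultrasound.

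**Figure D3:**
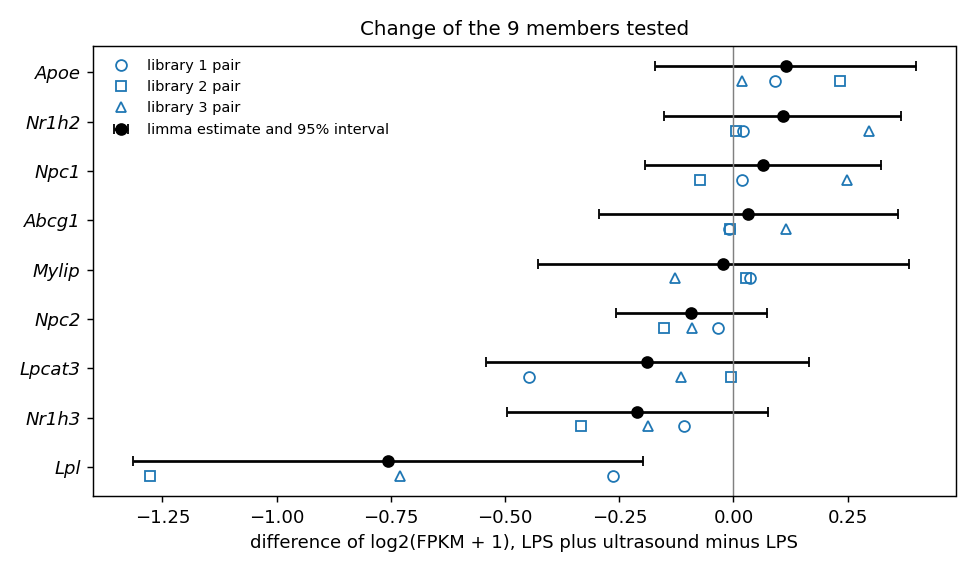
Log2 fold change, ultrasound against LPS (x axis), for the 9 members tested: black points with bars give the limma estimate and 95% interval, and open symbols the 3 same-numbered pairs. The interval of Lpl runs from -1.32 to -0.20, and the intervals of the other 8 genes include 0.

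Some genes that handle cholesterol after the lysosome had log2 fold changes of larger size than those of Npc1 and Npc2, without passing the test. All 15 genes of lysosomal release, transport and storage were tested, 0 passed in either direction, and the median log2 fold change was 0.03. Groups did not overlap for 5 of the 15, with 1 higher and 4 lower, beside 9.8% and 13.4% of all genes tested. Stard5, which encodes a cytosolic sterol carrier, had 5.49, 7.79 and 5.95 FPKM with LPS and 3.71, 3.18 and 3.57 with ultrasound (log2 fold change -0.71 ± 0.13 SE, limma, Benjamini-Hochberg adjusted p = 0.143). Gramd1a, whose product moves cholesterol from the plasma membrane to the endoplasmic reticulum, had 28.3, 34.9 and 34.9 FPKM with LPS and 17.0, 24.6 and 20.2 with ultrasound (-0.65 ± 0.15 SE, adjusted p = 0.183). The lipid droplet coat gene Plin2 had 34.7, 45.5 and 34.6 FPKM with LPS and 25.5, 29.7 and 23.4 with ultrasound (-0.53 ± 0.13 SE, adjusted p = 0.206). Every ultrasound library was below every LPS library for these 3 genes.

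LXR targets outside the member list also held genes with wide gaps. Of 14 other LXR targets 7 were tested and 0 passed (median log2 fold change 0.04). Arl4c, a small GTPase gene, had 2.81, 4.45 and 4.08 FPKM with LPS and 1.59, 1.38 and 1.91 with ultrasound (log2 fold change -0.85 ± 0.16 SE, limma, Benjamini-Hochberg adjusted p = 0.144). Fasn, the fatty acid synthase gene, had 27.0, 18.4 and 25.0 FPKM with LPS and 32.1, 34.5 and 31.6 with ultrasound (0.48 ± 0.14 SE, adjusted p = 0.222), and Smpdl3a, a phosphodiesterase gene, 7.17 ± 1.53 and 10.0 ± 0.995 (0.45 ± 0.15 SE, adjusted p = 0.256). Groups did not overlap for these 3 of the 7 tested genes, which were named for the smallest p. In the ultrasound group 1 was lower and 2 were higher, beside 13.4% and 9.8% of all genes tested. Without LPS library 2 the log2 fold change of Smpdl3a was 0.28, and without both libraries numbered 2 that of Fasn was 0.28.

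The 3 genes with the direct repeat in a promoter window did not share a pattern. Levels are for whole genes, so that of Srebf1 is not the level of its matching promoter alone. Fasn had the values above, Abca1 had group means of 0.936 and 0.961 FPKM, and Srebf1, the lipogenic transcription factor gene, had 15.4, 17.3 and 14.0 FPKM with LPS and 13.9, 18.3 and 14.0 with ultrasound (log2 fold change -0.02 ± 0.13 SE).

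Among 7 genes of sterol ligand supply, 3 were tested and 0 passed (median log2 fold change 0.02). Cyp27a1, the sterol 27-hydroxylase gene, had 27.1 ± 3.28 and 27.4 ± 1.17 FPKM and Dhcr7 17.5 ± 1.42 and 17.3 ± 0.594. Ch25h, the cholesterol 25-hydroxylase gene, was listed at 0 in all 6 libraries. Among 8 other transporter genes of the ABC A and G families 4 were tested and 0 passed, with a median of 0.03. Abca7 had 12.4 ± 1.22 and 9.83 ± 2.52 FPKM, Abca2 5.07 ± 0.781 and 6.08 ± 0.808, and Abca3 11.4 ± 0.448 and 12.3 ± 0.809. Over all 8 lists limma called 0 of 55 tested genes, while 6 were higher and 7 lower at an unadjusted p below 0.05, beside 6.18% and 9.16% of all genes tested. Groups did not overlap for 7 higher and 9 lower of the 55, beside 9.8% and 13.4% of all genes tested. With sample weights, limma called 5 of them, among these Arl4c, Gramd1a, Plin2 and Stard5, all lower.

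**Figure D4:**
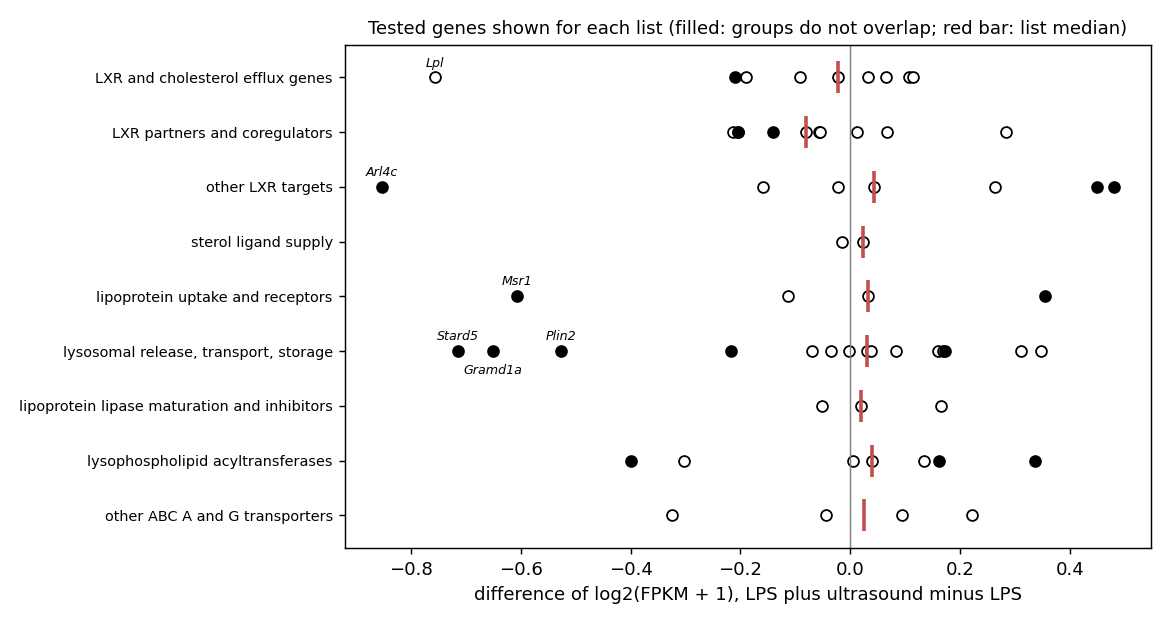
Log2 fold change, ultrasound against LPS (x axis), for the tested members and tested genes of 8 pathway lists (rows). A few tested list genes are not shown. Filled points mark genes whose groups do not overlap. Red bars mark medians over all tested genes of a row, also those not shown. The medians run from -0.08 to 0.04. Among the genes shown, Arl4c lies at -0.85 and Fasn at 0.48.

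The library number that was highest was often the same in both groups, for the members and for all genes tested. Library 3 was highest in both groups for 5 of 10 members, Nr1h3, Abcg1, Mylip, Apoe and Lpl, beside 15.9% of all genes tested. For 7 of 10 members the same library number was highest in both groups, not far from the 56.4% of all genes tested. Being highest in both groups does not mean close values. For Lpl, library 3 had 57.9 FPKM with LPS and 34.5 with ultrasound. With the replicate block the SE of Abcg1 went from 0.14 to 0.06 and that of Mylip from 0.17 to 0.06, while that of Lpl went only from 0.24 to 0.21. What the library numbers stand for is not given in the labels.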

How the data were processed

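The authors deposited FPKM for 55335 mouse Ensembl identifiers, from poly(A) RNA sequenced as paired ends, per the labels' protocols. Which aligner, quantifier, annotation and mouse genome were used is not given in the sources used here. A rat build, mRatBN 7.2, stands in the submitters' processing notes and rat muscle in the extraction text, but all 55335 identifiers are mouse ones and the values were read as mouse macrophage data. Columns were assigned by the initial and number shared with the titles. For long genes with 1 transcript, low FPKM piled up at steps that imply 25200000 to 29300000 fragments per library, but only 53.0% to 56.7% of low values lay within 0.05 of a whole step, so counts were not recovered and counting error is not given. An exact 0 can be a failed estimate.

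Genes averaging 1 FPKM or more were tested (11270, with 44065 left out). The test was limma 3.58.1 (R 4.3.3) of log2(FPKM + 1) with variance trend and robust moderation, two-sided, Benjamini-Hochberg adjusted, threshold 0.05. The method was tested on simulated data with noise drawn independently for each library, so a likeness of same-numbered libraries was not simulated. The groups share replicate numbers. Deviations from group means correlated across genes at 0.177, 0.442 and 0.409 between same-numbered libraries, so the numbers may pair the libraries. The tests given are from the fit without pairs, and the block is an alternative. The alternatives were pseudocounts, filters, scalings, moderation, sample weights, the block and leaving libraries out. Symbols, transcript lengths and overlaps came from GENCODE M21, promoters from RefSeq (GRCm38.p6).

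The members, the 8 lists and the design were chosen with earlier results of these data known. Named genes are all members, the 3 tested genes of each list with the smallest p, the 3 genes of at least 5 FPKM nearest to Abca1 and to Abcg1, and the highest markers of each cell type. A few genes under this rule are not reported here. Other genes named were chosen after their values were seen.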

Additional observations from a re-analysis of the deposited data

How the results depend on the processing

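Under the 17 alternatives 0 members passed the threshold, and the smallest adjusted limma p of a member was 0.112, for Lpl with sample weights. Of the member log2 fold changes, those of Abcg1 and Mylip changed sign: Abcg1 was -0.048 with sample weights and -0.10 to 0.12 when libraries were left out, and Mylip -0.14 to 0.15 when libraries were left out. Among list genes, leaving out libraries gave -0.070 to 0.099 for Cyp27a1, -0.072 to 0.039 for Dhcr7, -0.14 to 0.023 for Furin and -0.18 to 0.32 for Sel1l, and Sel1l was -0.00048 with libraries scaled to the same sum and -0.0053 with sample weights. With sample weights 5 list genes passed, among them Arl4c (-0.77), Gramd1a (-0.80), Plin2 (-0.49) and Stard5 (-0.58), at adjusted limma p from 0.0355 to 0.0438, and 0 passed under any other alternative.

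Over all genes, 2 were called, 1 with a mean of at least 5 FPKM, 6 with libraries scaled to the same sum, 13 with the replicate block, 223 with sample weights and 2 to 8 when libraries were left out, with 8 without LPS library 2. The replicate block changed no call of a member or list gene. Among genes with an unadjusted p below 0.05 the share that was higher was 40.3%, and it ran from 29.9% with libraries scaled to the same sum to 47.4% with no filter and 48.6% with quantile normalization. Abca1 was tested only with no filter and without both libraries numbered 2 (0.02 in both). The genes under 2 FPKM, Abca1, Nr1h3 and Apoe, rest on the fewest fragments, and the width of the intervals sets what could be seen.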
